A study of Gallus gallus with 6 samples.

Results

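The genes described here are 10 components of the switch that takes a cell from G1 into S phase, measured in cultured chicken primordial germ cells (PGC) and cultured chicken embryonic fibroblasts (CEF). They are the D-type cyclins CCND1, CCND2 and CCND3, the E-type cyclins CCNE1 and CCNE2, the kinase CDK6, the pocket proteins RB1, RBL1 and RBL2, and the transcription factor E2F1. They were chosen by name: every probe set whose single annotated symbol was one of these 10 was taken, and all 10 had at least 1. They make up 32 of 38439 probe sets tested and 10 of 13009 genes with a symbol. All 10 genes were above background in both cell types by their brightest probe set. Of the 32 probe sets, 29 were above background in at least 1 cell type.

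PGC, from which eggs and sperm later form, were grown from blood of embryos at day 2.5, with 20 embryos pooled for each replicate. Their medium was knockout DMEM supplemented with human basic fibroblast growth factor at 10 ng/ml. CEF, connective-tissue cells, were grown to passage 2 from the bodies of embryos at day 6.5 without internal organs and limbs, with 5 embryos pooled for each replicate. Their medium was DMEM and held fetal bovine serum at 10%. The labels give no genotype or strain for either group. Each cell type was measured on 3 Affymetrix Chicken Genome arrays, and the labels call the replicates biological. Cell numbers were given as 1500000 for each PGC replicate and 6000000 for each CEF replicate. Embryonic age, embryo pool, medium, cell number and cell type changed together and cannot be told apart. In such bulk cultures, fewer cells of a type and less RNA per cell cannot be told apart either.

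In G1, growth signals raise D-type cyclins, which activate CDK4 and CDK6. These kinases phosphorylate RB1 and its relatives RBL1 (p107) and RBL2 (p130), which otherwise hold E2F factors in check. Freed E2F activates genes of DNA replication and the E-type cyclins, which with CDK2 complete the phosphorylation. Mouse pluripotent stem cells are known for a short G1 phase, and resting cells for high RBL2. CDK2 and CDK4 were not analysed here.

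The arrays of each cell type were alike, with correlations across probe sets of at least 0.997 within PGC and at least 0.980 within CEF, and the CEF arrays varied more (a median SD of 0.203 against 0.0953 on the log2 scale). The cell type labels were checked with marker genes. All 7 measured PGC markers were higher in PGC, DAZL by a log2 difference of 10.27 and DDX4 by 9.43, and 9 of 10 fibroblast markers were higher in CEF, POSTN by a difference of -10.27. PDGFRA, the remaining one, was at background in both. NANOG, POU5F3 and PRDM14, further germ cell and pluripotency markers, were not analysed here. Of 7 measured leukocyte markers 6 were called in CEF, PTPRC at 6.98 against 2.55 in PGC, and their summed linear level was 193 to 437 on the CEF arrays against 47.6 to 50.0 on the PGC arrays. Their part in the differences described here was not tested. Erythroid markers were called for 0 of 5 genes by limma (3 at an unadjusted p under 0.05, all towards CEF), endothelial for 1 of 6 and muscle for 1 of 6. The summed levels of the latter lists were 26.98 to 27.41 and 70.2 to 75.3 in PGC and 43.6 to 63.2 and 106 to 153 in CEF. Both measured epithelial markers were called in PGC, EPCAM by 9.53 and CDH1 by 3.09, with a summed level of 1373 to 1416 in PGC against 5.09 to 8.57 in CEF, and both are also known from mouse germ cells. Their part in the differences was likewise not tested.

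The 10 genes did not move as a block. RBL1, CCNE2 and, to a smaller extent, CCND2 and CCNE1 were higher in PGC, while RB1, CDK6 and, to a smaller extent, RBL2 were higher in CEF. CCND1, CCND3 and E2F1 did not pass the test. The call required an adjusted p below 0.05 in limma (Benjamini-Hochberg over all 38439 probe sets) and a difference of 2-fold or more, which is 1 on the log2 scale. By that rule 2 of the 10 were called higher in PGC and 2 in CEF, beside 17.6% and 14.9% of all 13009 genes. With no minimum size, 4 passed towards PGC and 3 towards CEF, beside 32.1% and 29.3% of all genes. The shares among the 10 are thus near those of all genes. Their median difference was -0.08 on the log2 scale, and that of all genes was -0.05. Scaling to the bacterial spike-ins, which moved every difference by 0.97, gave a median of 0.89 for the 10. The median over all probe sets, as opposed to genes, went from -0.09 to 0.89. The arrays of the 2 groups did not overlap for 9 of the 10, beside 71.2% of all genes. All differences below are log2 values, PGC minus CEF, with limma's standard error, and each gene is represented by its brightest probe set unless another is named.

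**Figure D1:**
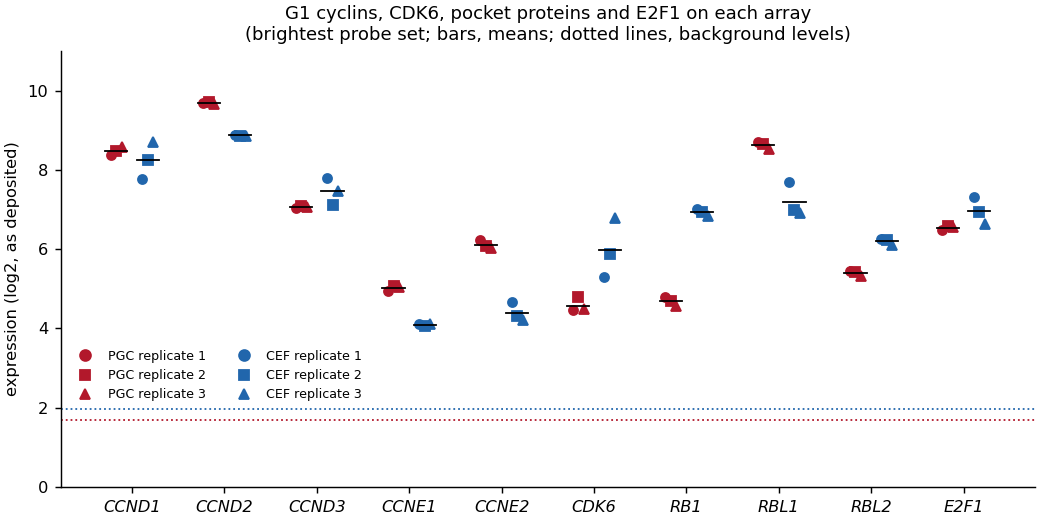
Expression (log2, as deposited) of the brightest probe set of each gene on each of the 6 arrays, with PGC in red and CEF in blue. Bars are group means and dotted lines the background levels, 1.68 in PGC and 1.97 in CEF. RB1 shows the widest gap towards CEF and CCNE2 the widest towards PGC, while the CCND1 values of the 2 groups overlap. Heights of different genes are not comparable, since probe sets differ in brightness.

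Among the pocket proteins, RB1 and RBL1 differed in opposite directions. RB1, the retinoblastoma protein that represses E2F target genes, stood at 4.80, 4.68 and 4.57 on the 3 PGC arrays and at 7.02, 6.93 and 6.84 on the 3 CEF arrays. Every CEF array lay more than 2 log2 units above every PGC array. The difference was -2.25 ± 0.12, a 4.75-fold higher level in CEF (adjusted p = 1.2e-06), which exceeded in size the differences of 89.1% of all genes. The next brightest RB1 probe set gave -1.91 ± 0.11 (adjusted p = 2.1e-06). The dimmest of its 3 probe sets, at 2.44 in PGC and 2.98 in CEF, gave -0.54 ± 0.22 and did not pass (adjusted p = 0.071). RB1 remained called after spike-in scaling, at -1.27.

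RBL1, the pocket protein p107, which is itself an E2F target gene in mammals and accumulates in dividing cells, stood at 8.71, 8.66 and 8.53 on the PGC arrays and at 7.68, 6.99 and 6.92 on the CEF arrays. The PGC arrays were all higher, and CEF replicate 1 was the highest of the CEF arrays. The difference was 1.44 ± 0.19, or 2.71-fold (adjusted p = 0.00026). Of its 7 probe sets, 5 were called higher in PGC, and the others lay at background in both cell types. The brightest probe set gave the smallest difference of the 5. The largest came from a dimmer probe set, which stood at 5.07, 4.99 and 4.91 on the PGC arrays and at 2.16, 2.31 and 2.71 on the CEF arrays, a difference of 2.60 ± 0.17 or 6.05-fold (adjusted p = 3.6e-06). The dimmest of the 5 fell under the CEF background level, so that its difference of 2.35 ± 0.19 gives at least a 4.60-fold higher level in PGC. The remaining ones, at 2.18 ± 0.16 and 1.88 ± 0.14, lay between. Identifiers ending in _s_at, 3 of these 5 among them, mark probe sets whose probes can match several transcripts. The brightest probe sets of CCND1, CCND3, CCNE1 and RBL2 are also of this kind.

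RBL2, the pocket protein p130 that is prominent in resting cells, stood at 5.45, 5.42 and 5.32 in PGC and at 6.26, 6.23 and 6.10 in CEF. All 3 CEF arrays were above all 3 PGC arrays. The difference of -0.80 ± 0.12 passed the test (adjusted p = 0.00048) but was under the 2-fold minimum, at 1.74-fold, and it turned to 0.18 after spike-in scaling and was -0.49 with the mean of its probe sets. The next brightest RBL2 probe set gave a like value of -0.81 ± 0.14. The dimmest gave 0.13 ± 0.25 (adjusted p = 0.70).

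The E-type cyclins, which activate CDK2 at the entry into S phase, were both higher in PGC. CCNE2 stood at 6.23, 6.07 and 6.02 on the PGC arrays and at 4.68, 4.32 and 4.21 on the CEF arrays. The groups were more than 1 log2 unit apart at their nearest arrays. The difference was 1.71 ± 0.16, or 3.27-fold (adjusted p = 2.7e-05). The other CCNE2 probe set gave 1.40 ± 0.21 (adjusted p = 0.00054), so both were called.

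CCNE1, the other E-type cyclin, stood at 4.94, 5.07 and 5.04 in PGC and at 4.11, 4.06 and 4.11 in CEF. Both groups were tight and did not overlap. The difference of 0.92 ± 0.12 passed the test (adjusted p = 0.00028) at 1.89-fold, just under the 2-fold minimum. The next brightest CCNE1 probe set was just over it at 1.06 ± 0.17 or 2.09-fold (adjusted p = 0.00089). The others were near or under background and gave -0.21 ± 0.16 and -0.20 ± 0.12, neither past the test. Only the 2 brighter CCNE1 probe sets therefore passed the test, and the mean of all 4 gave 0.39 (adjusted p = 0.014).

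The D-type cyclins, which link growth factor signals to the cell cycle, differed from each other. CCND2 stood at 9.69, 9.71 and 9.67 on the PGC arrays and at 8.89, 8.86 and 8.86 on the CEF arrays. The replicates of each cell type agreed within 0.05 and the groups did not overlap. The difference of 0.82 ± 0.06 passed the test (adjusted p = 5.8e-06) at 1.76-fold, under the 2-fold minimum. Its 3 probe sets all passed towards PGC but disagreed in size. The dimmest of them stood at 9.32, 9.37 and 9.52 in PGC and at 6.85, 7.60 and 7.93 in CEF, a difference of 1.95 ± 0.24 or 3.85-fold (adjusted p = 0.00015). The third gave 0.66 ± 0.08 (adjusted p = 0.00022). CCND2 was called with the mean of its 3 probe sets (1.14, adjusted p = 1.2e-05). The values lay below those of the brightest spike-in, cre, which averaged 11.20 in PGC and 11.33 in CEF.

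CCND1, the most widely studied D-type cyclin, stood at 8.38, 8.47 and 8.58 in PGC and at 7.77, 8.26 and 8.71 in CEF. The CEF arrays spread over a wider range than the PGC arrays and enclosed them. The difference of 0.23 ± 0.20 did not pass (adjusted p = 0.39), with a 95% interval from -0.24 to 0.69 that leaves out a 2-fold difference on the deposited scale. It came to -0.01 without CEF replicate 1, to 0.46 (adjusted p = 0.034) without CEF replicate 3 and to 1.20 after spike-in scaling, when it was called. The other CCND1 probe set gave -0.16 ± 0.10 (adjusted p = 0.22). CCND3, the third D-type cyclin, stood at 7.03, 7.08 and 7.08 in PGC and at 7.80, 7.11 and 7.47 in CEF. The CEF arrays were all above the PGC arrays, CEF replicate 2 only narrowly. The difference of -0.39 ± 0.16 did not pass (adjusted p = 0.077), with a 95% interval from -0.77 to -0.02. After spike-in scaling it turned to 0.58 and passed towards PGC, with no call (limma adjusted p = 0.0058). It passed towards CEF, with no call, under 75th percentile centring (-0.52, adjusted p = 0.027), quantile normalization (0.032), array weights (0.035), a floor at background (0.0498) and without CEF replicate 2 (-0.57, 0.0080). Without CEF replicate 1 it was -0.22 (adjusted p = 0.15).

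CDK6, a kinase partner of the D-type cyclins that is prominent in blood cells of mouse and human, stood at 4.46, 4.79 and 4.48 in PGC and at 5.30, 5.88 and 6.79 in CEF. The CEF arrays were all higher but spread over more than 1 log2 unit, the widest spread of the 10 genes. The difference was -1.41 ± 0.33, or 2.66-fold (adjusted p = 0.0070). It rested on 1 of 5 CDK6 probe sets. The others lay at or near background, between 1.78 and 2.70 in both cell types, with differences from -0.21 to 0.23 that did not pass. With the mean of all 5 probe sets the difference was -0.21 and not called (adjusted p = 0.24), and after spike-in scaling it was -0.44 (adjusted p = 0.19). Leukocyte markers, whose summed linear level was 268, 193 and 437 on CEF replicates 1, 2 and 3, were highest on the array where CDK6 was highest but lowest on replicate 2. The muscle sums on those arrays were 106, 129 and 153 and the endothelial sums 43.6, 45.7 and 63.2, in the same order as CDK6. Only ACTC1 and TNNT3 among the muscle markers, and VWF and PECAM1 among the endothelial ones, rose in that order. The remaining markers of both lists did not. Whether such cells had a part in the CDK6 difference was not tested.

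E2F1, an activating E2F factor, was represented by 1 probe set. It stood at 6.47, 6.59 and 6.57 in PGC and at 7.32, 6.94 and 6.65 in CEF. CEF replicate 3 lay close to the PGC arrays. The difference of -0.43 ± 0.17 did not pass the test (adjusted p = 0.063), with a 95% interval from -0.81 to -0.05. After spike-in scaling it turned to 0.54 and passed towards PGC, with no call (limma adjusted p = 0.017). It passed towards CEF, with no call, under 75th percentile centring (-0.55, adjusted p = 0.031), quantile normalization (0.036), array weights (0.031), a floor at background (0.039) and without CEF replicate 3 (-0.59, 0.0079). Without CEF replicate 1 it was -0.25 (adjusted p = 0.10).

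**Figure D2:**
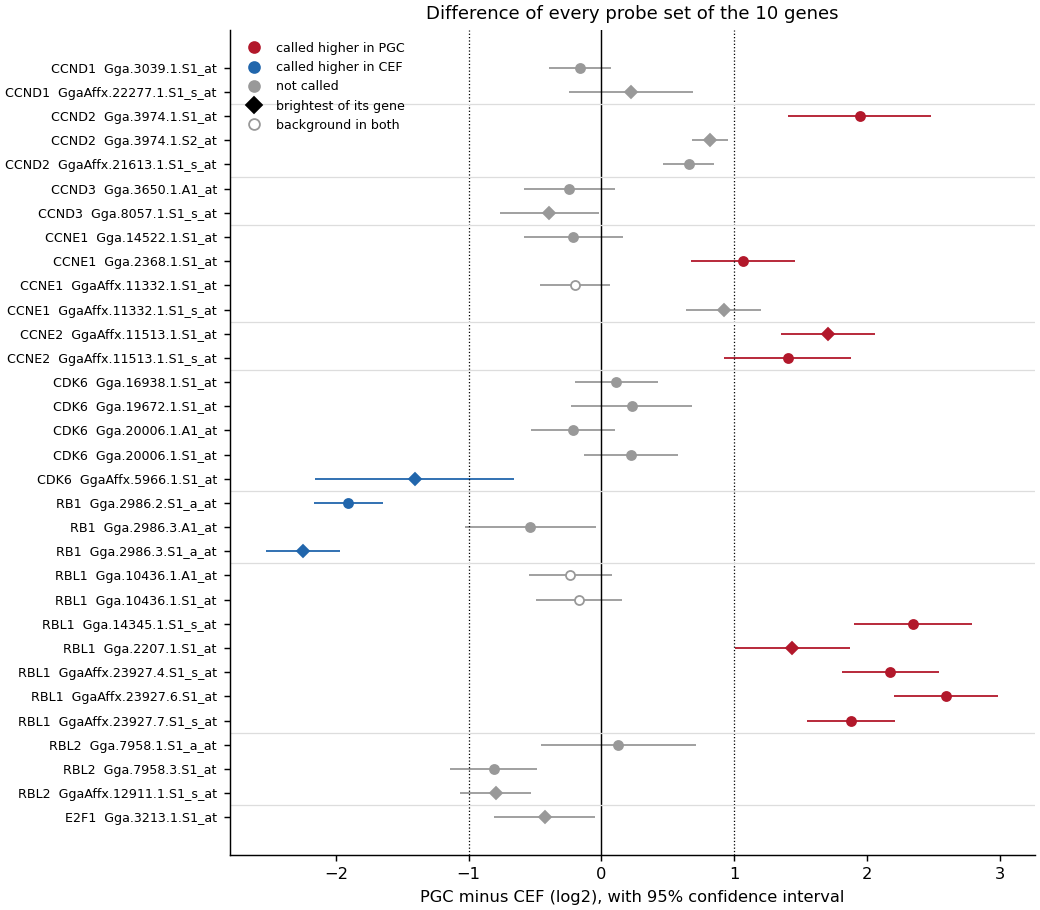
PGC minus CEF difference (log2) of each of the 32 probe sets with its 95% confidence interval from limma. Diamonds mark the brightest probe set of each gene, open circles those at background in both cell types, and dotted lines the 2-fold minimum. Called towards PGC were 9 probe sets, 5 of them of RBL1, and called towards CEF were 3, 2 of RB1 and 1 of CDK6.

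Over the 32 probe sets, 9 were called higher in PGC and 3 in CEF, beside 14.6% and 10.1% of all 38439 probe sets. Probe sets of the same gene share an annotated symbol and may read the same transcript, so they cannot be counted as independent. No gene had probe sets called in both directions. The CEF arrays varied more than the PGC arrays for 7 of the 10 genes, beside 82.6% of all genes. CCND2, CCNE1 and RB1 were the exceptions, with an SD in CEF of 0.02, 0.03 and 0.09.

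Related genes were compared by their ratio within each array, which any scaling of whole arrays leaves as it is. The ratio of 2 probe sets has no meaning as a level, and only its shift between the cell types was read. The ratio of RB1 to RBL1 was -3.91, -3.98 and -3.97 (log2) on the PGC arrays and -0.66, -0.06 and -0.08 on the CEF arrays. The groups lay far apart, with a shift of -3.68. RB1 also shifted against RBL2, by -1.45, and RBL1 against RBL2, by 2.23. CCND2 shifted against CCND3 by 1.21, from a CEF range of 1.09 to 1.75 to a PGC range of 2.59 to 2.65. CCNE1 shifted against CCNE2 by -0.79. CCND1 shifted against CCND3 by 0.62, a value in which CEF replicate 1 (-0.03) stood far below the other CEF arrays (1.15 and 1.25). In these 6 pairs the groups did not overlap, and each reached the smallest two-sided p that an exact permutation test of 3 against 3 arrays can give, 0.1 (0.12 adjusted over 7 pairs). The ratio of CCND1 to CCND2 overlapped between the groups and shifted by -0.59 (exact p = 0.2). The size of a shift depends on the probe sets taken, since those of the same gene could differ. Differences ran from 0.66 to 1.95 over the CCND2 probe sets and from -0.21 to 1.06 over those of CCNE1. For the 2 CCND1 pairs the test result depended on this choice as well. With the mean of all probe sets of a gene, CCND1 shifted against CCND3 by 0.35 (permutation test, adjusted p = 0.4). Against CCND2 it then shifted by -1.11 (adjusted p = 0.12, the smallest reached with the brightest probe sets). No pair could pass 0.05 by that test.

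**Figure D3:**
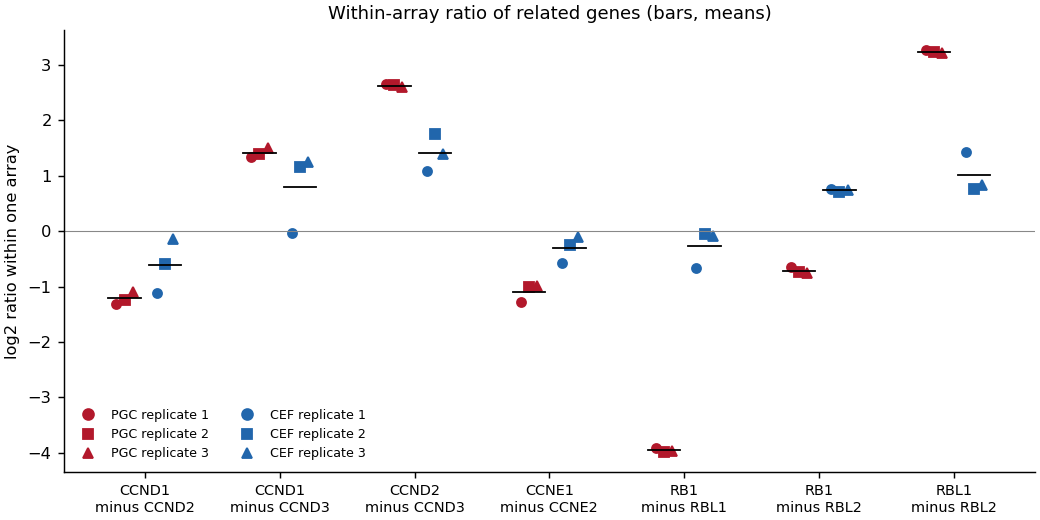
Log2 ratio of related genes within each array, by the brightest probe set of each, with PGC in red, CEF in blue and bars for the group means. The ratio of RB1 to RBL1 shifted most, from a mean of -0.27 in CEF to -3.95 in PGC, and the ratio of CCND1 to CCND2 is the pair whose groups overlap.

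The rest of the pathway was described by lists of known genes, whose counts stand beside 17.6% of all genes called in PGC and 14.9% in CEF. Every measured gene of the lists, like the members, was above background in at least 1 cell type. All genes include some at background in both, so these shares are not fully comparable. Of 23 measured E2F target genes, 14 (60.9%) were called higher in PGC and 0 in CEF, and 9 were not called. After spike-in scaling 21 were called in PGC, beside 5938 of all 13009 genes. The list median was 1.44, beside -0.05 for all genes. The largest differences were those of SLBP, which binds histone mRNA (3.13 ± 0.17, 8.73-fold), BRCA1, a DNA repair protein (3.09 ± 0.15, 8.53-fold), and TYMS, thymidylate synthase (3.07 ± 0.13, 8.42-fold). TYMS stood at 9.31, 9.23 and 9.32 on the PGC arrays and at 6.49, 5.96 and 6.19 on the CEF arrays. Of the 9 not called, TK1, thymidine kinase, differed by -0.25 ± 0.13 (adjusted p = 0.15) and UHRF1, a partner of DNA methylation, by 0.40 ± 0.13, past the test but under 2-fold. With the mean of its 4 probe sets UHRF1 differed by 0.11 and did not pass (limma adjusted p = 0.39). Towards CEF, 1 gene had an unadjusted p under 0.05: CHEK1, a checkpoint kinase, differed by -0.60 ± 0.13 (adjusted p = 0.0051), and it was picked after its value was seen.

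Of 8 other E2F and DP factors measured, 3 (37.5%) were called in PGC and 1 towards CEF. The list median was 0.80. E2F8, a repressor that lacks a DP partner, was 6.0-fold higher in PGC (2.58 ± 0.15), and its fellow repressor E2F7 was 2.81-fold higher in CEF (-1.49 ± 0.14). E2F8 stood at 7.75, 7.67 and 7.60 in PGC and at 5.41, 4.89 and 4.97 in CEF. E2F7 stood at 5.33, 5.23 and 5.05 in PGC and at 6.89, 6.68 and 6.53 in CEF, and its call was lost with the mean of its 2 probe sets (-0.26) and after spike-in scaling (-0.52). The dimerisation partners TFDP2 (2.29 ± 0.15) and TFDP3 (1.76 ± 0.12) were higher in PGC. E2F3, an activator, and E2F4, a repressor that partners pocket proteins, were not called (0.25 ± 0.16 and -0.29 ± 0.11). E2F3 stood low, at 2.98 in PGC and 2.73 in CEF.

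Of 7 measured genes of the MuvB core, the MYB family and FOXM1, which join pocket proteins or follow them at cell cycle genes, 3 (42.9%) were called higher in PGC and 0 in CEF. The list median was 0.88. They were the MuvB subunits LIN52 (2.15 ± 0.10) and LIN9 (1.53 ± 0.11) and the transcription factor FOXM1 (1.31 ± 0.11), which lost its call under treat, limma's test for differences beyond 2-fold (adjusted p = 0.063). LIN54 (0.17 ± 0.15) of the same core was not called, nor was RBBP4 (0.33 ± 0.07), which passed the test but was under 2-fold. LIN54 stood low, at 2.76 in PGC and 2.59 in CEF. The mean of its 3 probe sets passed at 0.46 (limma adjusted p = 0.028), also under 2-fold. Towards CEF, 1 gene had an unadjusted p under 0.05, the MYB family member MYBL1 (-0.64 ± 0.19, adjusted p = 0.023), and it was picked after its value was seen.

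Among 10 measured G1/S kinases and partners, 3 (30.0%) were called in PGC and 1 (10.0%) towards CEF. The list median was 0.53. CKS2, a small subunit of cyclin-dependent kinases, was 6.98-fold higher in PGC (2.80 ± 0.11). MNAT1, which assembles the CDK-activating kinase, was 3.61-fold higher (1.85 ± 0.11). CCNG2 was higher in PGC (1.53 ± 0.14, or 0.95 and no call when its probe sets were averaged) and CCNG1, a p53 target gene, in CEF (-1.77 ± 0.08, or -0.79 and not called after spike-in scaling). CDC25A, the phosphatase that activates CDK2 (0.13 ± 0.12), and CDK7 (0.28 ± 0.17) did not pass.

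The CDK inhibitors and the genes of G1 cyclin degradation went both ways. Of 14 measured, 2 (14.3%) were called in PGC and 3 (21.4%) in CEF, near the shares of all genes. The list median was -0.18, or 0.79 after spike-in scaling, which moved every difference by 0.97. All 3 called in CEF were inhibitors. The other measured inhibitors were not called, and they were named after their values were seen. CDKN1B differed by -0.11 ± 0.12 (limma adjusted p = 0.48) and CDKN2C by -0.70 ± 0.24 (limma adjusted p = 0.037), under 2-fold. CDKN2B, p15, which blocks CDK4 and CDK6, stood at 1.62, 1.53 and 1.52 on the PGC arrays, under background, and at 8.25, 7.86 and 9.10 on the CEF arrays, at least 105-fold higher (-6.85 ± 0.28). CDKN2A, whose chicken locus is known for the p53 activator ARF, was likewise under background in PGC and at least 91.5-fold higher in CEF (-6.80 ± 0.21). CDKN1A, p21, stood at 3.76, 3.94 and 3.76 in PGC and at 9.01, 8.81 and 9.30 in CEF, 37.3-fold higher (-5.22 ± 0.15). In PGC, USP28, a deubiquitinase (2.44 ± 0.26), and CUL1, the scaffold of the SCF ubiquitin ligase that degrades cyclin E (1.58 ± 0.11, or 0.88 and no call when its probe sets were averaged), were higher. RBX1 (-0.04 ± 0.08) and SKP2 (0.05 ± 0.09), further subunits of SCF ligases, did not pass the test. In this list 3 genes had an unadjusted limma p under 0.05 towards PGC and 6 towards CEF. Among them, SKP1 (0.70 ± 0.06), FBXW7 (-0.99 ± 0.15, adjusted p = 0.00070), FBXO31 (-0.86 ± 0.26, adjusted p = 0.022) and CDKN2C were under 2-fold. They were picked after their values were seen. Under 75th percentile centring 4 genes of the list were called in CEF.

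**Figure D4:**
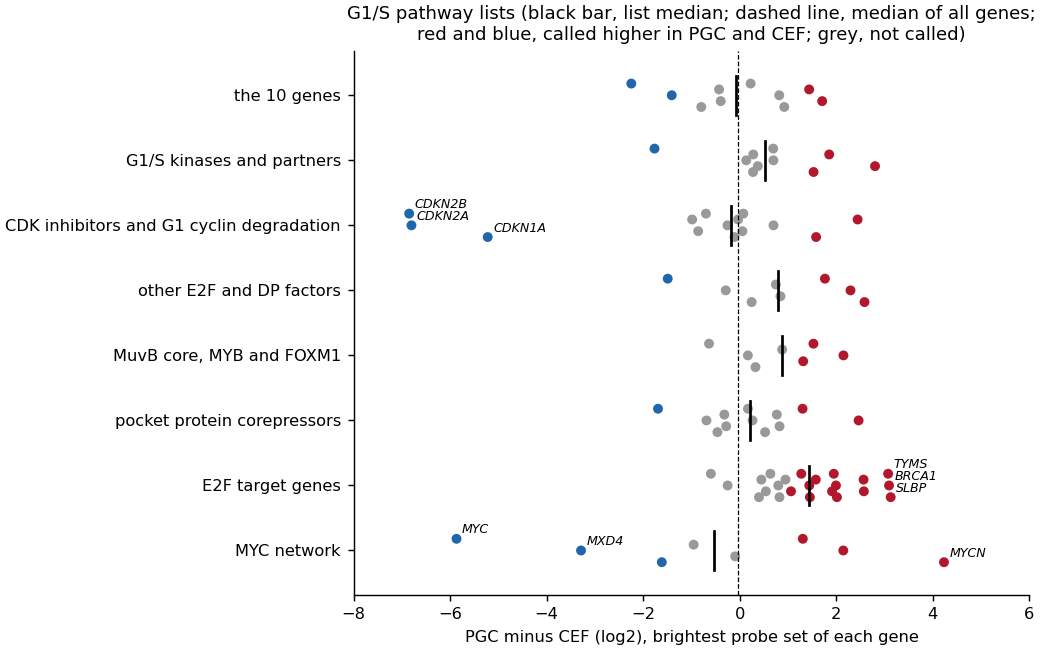
PGC minus CEF difference (log2) of each measured gene, by its brightest probe set, for the 10 genes and 7 lists of the surrounding pathway. Black bars are list medians, the dashed line is the median of all genes, red and blue points are called higher in PGC and CEF and grey points are not called. E2F target genes lie mostly to the right, with a median of 1.44, while CDKN2B, CDKN2A and CDKN1A lie far to the left.

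The genes whose 6 values were nearest to those of a called member, by Euclidean distance over the 6 arrays, were taken for CCNE2 and RB1. For CCNE2 they were TMEM260 (distance 0.25, difference 1.73 ± 0.13), CCDC43 (0.26, 1.61 ± 0.13) and ATR, the replication stress kinase (0.28, 1.59 ± 0.19). For RB1 they were SERPINB6, a protease inhibitor (0.28, -2.26 ± 0.13), MAP3K14, the NF-kappaB-inducing kinase (0.30, -2.26 ± 0.13), and TNRC18 (0.35, -2.08 ± 0.12). Such nearness depends on the brightness of the probe sets as well as on the difference.

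The size and, for some genes, the direction of these differences depend on how arrays are set against each other. The mean of the bacterial spike-ins bioB, bioC and bioD differed by -0.97 on the log2 scale, with the PGC arrays lower, so that scaling to them moved every difference by 0.97 and the median of all probe sets from -0.09 to 0.89. The brighter spike-in cre differed by only -0.13, so the size of such a shift depends on the spike-ins taken. Centring on the 75th percentile moved every difference by -0.12. The order of the 10 genes was the same under both by construction. After spike-in scaling 5 of the 10 were called in PGC (CCND1, CCND2, CCNE1, CCNE2 and RBL1) and 1 in CEF (RB1). Over all 13009 genes, 5938 were then called in PGC and 928 in CEF. Of all genes called, 54.3% lay towards PGC as deposited and 86.5% after that scaling.

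**Figure D5:**
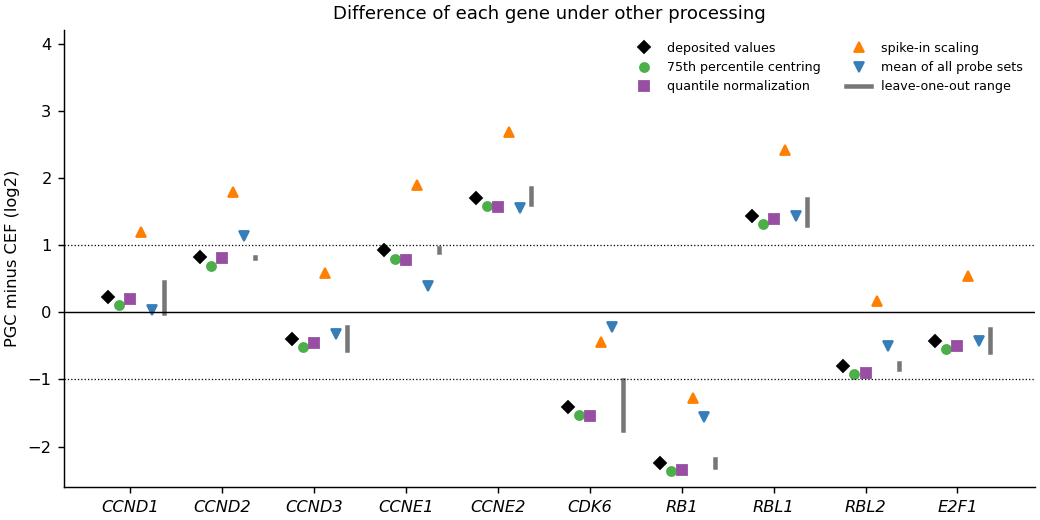
PGC minus CEF difference (log2) of each gene with the deposited values, under 3 other scalings, with the mean of all probe sets of the gene, and as the range when each array was left out in turn (grey bars). Dotted lines mark the 2-fold minimum. RB1 lies below -1 and CCNE2 and RBL1 lie above 1 under all settings drawn, while CCND3, RBL2 and E2F1 cross 0 under spike-in scaling.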

How the data were processed

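Affymetrix Chicken Genome arrays, 3 of PGC and 3 of CEF, were hybridised with cRNA from about 5 µg total RNA each, per the labels' protocols. The deposited values were taken as log2 expression normalized between arrays. The scale was read from their range (-0.13 to 12.52), and folds rest on base 2. MAS5 and GCOS appear in the submitters' processing notes. What each did, and how values were normalized and corrected for background, is not given in the sources used here, and the values were used unscaled.

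After removal of 96 control probe sets, 38439 were fitted in limma 3.58.1 (R 4.3.3). lmFit was followed by eBayes with its intensity trend switched on, and tests were two-sided, with cell type as the only term and 4 residual degrees of freedom. The number of arrays limits the precision. The procedure was tested on simulated data. Symbols came from the array annotation (27178 probe sets with 1 symbol, 177 with several, 11180 with none). The probe set with the highest mean over all arrays stood for its gene. Background was the 95th percentile of 687 probe sets without the chicken prefix or a symbol, a choice made after seeing the data. Where a cell type lay under it, folds are "at least" that against the background level. Related genes were compared with an exact permutation test in scipy 1.17.1.

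All 10 members were named with all their probe sets. From each list were named up to 3 called genes per direction with the largest differences, and up to 2 not called with the smallest. The members and lists were chosen with earlier results of these data known. Alternatives were 3 other scalings, the mean of probe sets, other variance models, treat, handling of dim probe sets, leaving out arrays and a replicate block.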

Additional observations from a re-analysis of the deposited data

How the results depend on the processing

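RB1 and CCNE2 kept their direction and call under all 16 alternatives tried, and RBL1 under all except treat, limma's test for differences beyond 2-fold (1.44, adjusted p = 0.14). CDK6 lost its call under treat (-1.41, adjusted p = 0.61), with the mean of its probe sets (-0.21) and under spike-in scaling (-0.44). Spike-in scaling added calls for CCND1 (1.20), CCND2 (1.79) and CCNE1 (1.89) and reversed CCND3 (0.58), RBL2 (0.18) and E2F1 (0.54). With no minimum size, CCND3 and E2F1 passed towards PGC under that scaling. They passed towards CEF under 75th percentile centring, quantile normalization, array weights and the floor. The mean of probe sets added a call for CCND2 (1.14). Without each array in turn CCND1 ran from -0.013 (without CEF replicate 1) to 0.46. The numbers of the 10 called in PGC and CEF, 2 and 2, became 5 and 1 under spike-in scaling and 1 and 1 under treat, and with the mean of probe sets 1 was called in CEF. Over all probe sets, 5597 and 3872 became 15563 and 1761 under spike-in scaling and 3245 and 2419 under treat. With the mean of probe sets, that count has no value. In the lists, the mean of probe sets left 1 degradation gene called in PGC and 0 E2F or DP factors and 0 corepressors in CEF. Spike-in scaling of the lists, chosen after seeing the data, called 9, 5, 6, 6, 7, 21 and 3 genes in PGC among kinases and partners, inhibitors and degradation, E2F and DP factors, MuvB genes, corepressors, E2F targets and the MYC network. In CEF it called 2 MYC network genes, 3 inhibitors, 0 kinases and partners, 0 E2F or DP factors and 0 corepressors. Over all 13009 genes that scaling called 5938 in PGC and 928 in CEF. Spike-in scaling and 75th percentile centring shift all genes alike, and the cause of the other changes was not tested. The labels give no pairing of the arrays by replicate number. Deviations of same-numbered arrays correlated at -0.04, -0.01 and 0.01, and those of differently numbered arrays from -0.08 to 0.08. Such values cannot show whether arrays shared a batch. With the replicate number as a block, 2 and 2 members were called.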

Other observations

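The MYC network, whose transcription factors raise D-type cyclins and E2F genes in mammals, differed strongly between its 2 main genes. MYCN stood at 10.95, 10.85 and 10.85 on the PGC arrays and at 6.54, 6.25 and 7.17 on the CEF arrays, a difference of 4.23 ± 0.20 (18.8-fold, limma adjusted p = 5.2e-07). MYC stood at 1.76, 1.75 and 2.08 in PGC, close to the background level of 1.68, and at 7.68, 7.32 and 8.18 in CEF, a difference of -5.87 ± 0.22 (58.4-fold, adjusted p = 1.6e-07). Both calls held under the spike-in scaling (5.20 and -4.89). Of 8 measured genes of the network, 3 (37.5%) were called in PGC and 3 (37.5%) towards CEF, beside 17.6% and 14.9% of all genes. The list median was -0.53, or 0.45 under spike-in scaling, which moved every difference by 0.97. The repressors MXD4 (-3.29 ± 0.12) and MXD1 (-1.61 ± 0.15) were higher in CEF, MXD1 losing its call after spike-in scaling (-0.64) and with averaged probe sets (-0.67). MXD3 (2.15 ± 0.17) and MNT (1.31 ± 0.14) were higher in PGC, MNT losing its call with averaged probe sets (0.58) and under treat. MLX (-0.10 ± 0.08) was not called. MXI1 (-0.95 ± 0.11) passed the test (adjusted p = 0.00015) under 2-fold, and was called in CEF under 75th percentile centring (-1.08), which makes 4 called there.

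Of 12 measured corepressors that bind pocket proteins, 2 (16.7%) were called in PGC and 1 (8.33%) towards CEF, near or under the 17.6% and 14.9% of all genes. The list median was 0.22. SUV39H2, a histone H3 lysine methyltransferase, was 5.51-fold higher in PGC (2.46 ± 0.13), and SIN3A, a scaffold of histone deacetylases, was 2.46-fold higher (1.30 ± 0.16), a call lost under treat (adjusted p = 0.24). SMARCA2, an ATPase of SWI/SNF remodellers, was 3.23-fold higher in CEF (-1.69 ± 0.14), a call lost when its probe sets were averaged (-0.84) and under spike-in scaling (-0.72). DNMT1 (0.17 ± 0.18) and HDAC1 (0.26 ± 0.10) were not called.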
